A study of Mus musculus with 6 samples.

Results

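The genes described are Hif1a, which encodes the oxygen-regulated subunit of the hypoxia-inducible factor HIF, and 9 genes known as targets of HIF: Egln1, Egln3, Bnip3, Ddit4, Vegfa, P4ha1, Ndrg1, Ankrd37 and Kdm3a. They were taken by gene symbol: every probe set of the array whose only platform symbol was one of these 10 genes was kept, which gave 21 of the 45101 probe sets in the value table. No probe set carried one of these symbols together with another. The cells were C2C12 myoblasts, a mouse line of muscle precursor cells that can fuse into myotubes. The pyruvate group (3 arrays) was grown for 72 h at 37°C in DMEM made without sodium pyruvate, to which 50 mM sodium pyruvate was added, and the untreated group (3 arrays) for the same time in basal DMEM. Both media held 10% fetal bovine serum, 4 mM glutamine and 1% antibiotics, and all cells were labelled undifferentiated. Whether the basal DMEM held some pyruvate, and at what oxygen level the cells were kept, was not stated in the labels, and no medium matched for sodium was analysed here. Total RNA was hybridised to Affymetrix Mouse Genome 430 2.0 arrays, 1 array per sample, and each value is a MAS5 signal, an intensity on a linear scale. Nothing in the labels ties the 3 arrays of a group to separate cultures. The spread that the p-values rest on may therefore be technical.

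HIF is a pair of proteins, an alpha subunit such as HIF1A and its constant partner ARNT. When oxygen is present, prolyl hydroxylases encoded by the Egln genes mark the alpha subunit, the VHL protein binds the marked form, and the proteasome destroys it. When oxygen falls the alpha subunit lasts, enters the nucleus, pairs there with ARNT and switches on genes for glucose use, vessel growth, mitochondrial turnover and matrix. Since this control acts mainly on the protein, which the arrays do not measure, transcript values describe the genes and not the activity of the factor.

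Compared with untreated cells, pyruvate-treated cells had lower signals for most of the HIF targets and higher signals for none that passed the test. By the brightest probe set of each gene, 6 of 10 genes fell (Bnip3, Egln3, Ankrd37, Kdm3a, P4ha1 and Ndrg1) and 0 rose, while Hif1a, Egln1, Ddit4 and Vegfa did not pass. Of all 10685 genes tested, 35.1% passed, 14.5% falling and 20.7% rising. A probe set was tested if its mean log2 value reached the midpoint of all non-control probe sets, a signal of about 30.3, and it passed at a limma adjusted p of 0.05 or less (Benjamini-Hochberg over all 22519 probe sets tested). Of the 21 member probe sets 20 were tested, of which 14 fell, 0 rose and 6 did not pass. Across all probe sets tested 32.2% passed, 15.9% falling and 16.3% rising. At an unadjusted p under 0.05 in limma, 15 member probe sets were lower and still 0 higher.

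The changes of the 20 tested member probe sets ran from -1.11 to 0.14 on the scale of log2(signal + 16), which understates the change of dim probe sets. The median change of the 10 genes was -0.38, beside 0.03 for all genes tested. All 3 pyruvate arrays lay below all 3 untreated arrays in 15 of the 20 probe sets, above them in 1, and overlapped them in 4. For all probe sets tested the groups did not overlap in 45.4%, with 22.5% below and 22.9% above. A fall of at least 0.5 that also passed the test was seen in 5 member probe sets and a rise of that size in 0, against 4.75% and 4.03% of all tested.

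**Figure D1:**
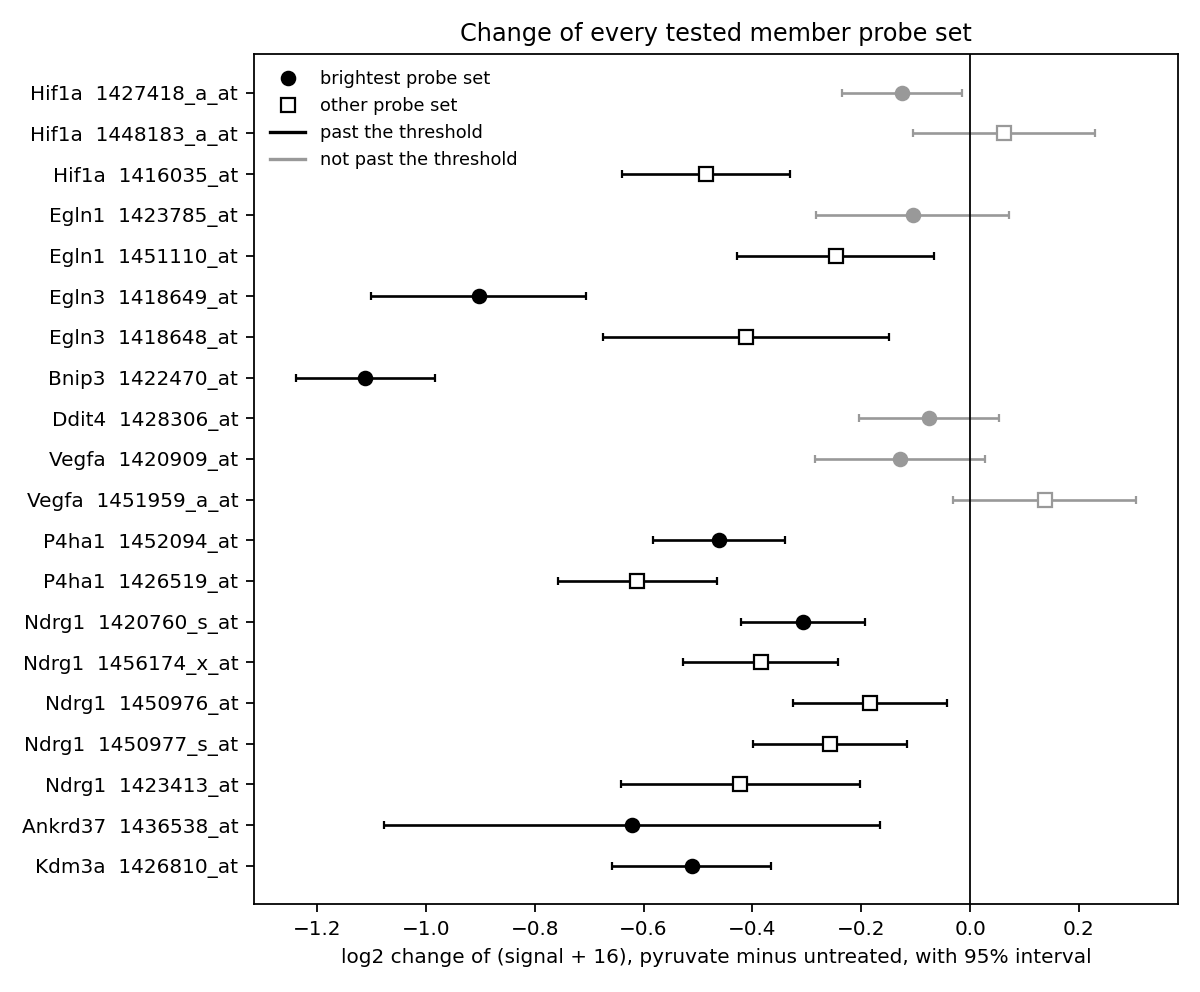
Log2 change of (signal + 16), pyruvate minus untreated, for the 20 tested member probe sets, with the 95% interval from limma. Filled circles are the brightest probe set of a gene and open squares its other probe sets. Black marks passed the test. All 14 black marks lie left of 0, from -0.18 to -1.11.

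The arrays had median signals of 30.3 to 33.0 and correlations across probe sets of 0.985 to 0.991 within groups and 0.979 to 0.983 between groups. The groups of arrays were not alike in every respect. Spiked-in hybridisation controls were higher in pyruvate arrays in all 18 probe sets, by a mean of 0.58 on the log2 scale. The 864 brightest tested probe sets, at a log2 mean of 11 or more, had a median change of 0.23. Apart from the bright Hif1a probe set at a log2 mean of 10.93, the member probe sets lay well under that range. Myoblast markers were present in both groups apart from Pax7, below the signal limit, but 6 of the 7 tested changed. Myod1 changed by 0.26, Vim by 0.50 and Ncam1 by 0.17. Myf5 changed by -0.65, Cdh15 by -0.39 and Itga7 by -0.21, while Des did not pass. Vim depended on scaling, at -0.03 after quantile and 0.27 after cyclic loess normalization. The summed signal of the myoblast markers was 15763 to 17434 in pyruvate arrays and 14132.5 to 15157 in untreated arrays. Vim made up the largest part of this sum, with means of 9016 in pyruvate arrays and 6363 in untreated arrays. Myotube markers differed with treatment: 5 of 6 fell, and their summed signal was 551 to 740 in pyruvate arrays against 4628 to 4983 in untreated arrays. The part of these marker differences in the lower HIF target signals was not tested, and in bulk RNA fewer cells of a kind and less RNA per cell cannot be told apart. Summed signals of adipocyte markers were 101 to 112 in pyruvate arrays and 55.1 to 76.3 in untreated arrays, with Adipoq and Fabp4 below the signal limit. Cebpa, the only adipocyte marker tested, rose by 0.84 (adjusted p = 0.00040 in limma), with means of 78.3 in pyruvate arrays and 36.6 in untreated arrays. Macrophage markers summed to 113 to 167 in pyruvate arrays and 115 to 148 in untreated arrays. Endothelial markers summed to 45.0 to 56.1 in pyruvate arrays and 65.8 to 87.5 in untreated arrays. Kdr, the only endothelial marker tested, fell by 0.43 (adjusted p = 0.043 in limma), with means of 25.8 in pyruvate arrays and 40.4 in untreated arrays. Osteoblast markers summed to 35.9 to 57.5 in pyruvate arrays and 53.4 to 63.9 in untreated arrays.

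The factor itself was measured by 4 probe sets that did not move alike. The brightest Hif1a probe set, 1427418_a_at, read 1890.6, 1857.7 and 1825.9 in pyruvate cells, against 2131.4, 1929.0 and 2027.0 in untreated cells. The groups did not overlap, but the gap was small: the log2 change was -0.12 with a 95% interval of -0.24 to -0.01 and did not pass (adjusted p = 0.080). The probe set 1416035_at read 240.0, 240.5 and 222.0 in pyruvate cells, against 338.5, 354.8 and 310.2 in untreated cells. It fell by 0.49 on the log2 scale (SE 0.07, adjusted p = 0.00034). The second brightest, 1448183_a_at, read 565.2, 490.2 and 463.1 in pyruvate cells, against 451.0, 488.8 and 509.1 in untreated cells, with overlapping groups and a change of 0.06 (adjusted p = 0.57). The fourth, 1431981_at, lay below the signal limit with means of 14.03 in pyruvate cells and 17.4 in untreated cells and was not tested.

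Within each array, the log2 value of Hif1a probe set 1448183_a_at minus that of 1416035_at was higher in pyruvate cells by a mean of 0.55. This difference lay between 0.98 and 1.18 on the pyruvate arrays, and between 0.40 and 0.69 on the untreated arrays. All 17 pairs of tested probe sets of the same member gene were compared in this way, and the groups did not overlap in 9, including all 3 pairs of Hif1a. Those 9 gave p = 0.1 in a two-sided exact permutation test, the smallest p that 3 against 3 arrays allow (0.19 after adjustment over the 17). The share of such pairs over all genes was not computed, and for single probe sets tested the groups did not overlap in 45.4%. Many of the 17 pairs also reuse the same Ndrg1 probe sets, so the count is not read as a trait of these genes. Which Hif1a transcripts each probe set reads was not analysed here. The mean over the 3 tested Hif1a probe sets fell by 0.18 (adjusted p = 0.014 in limma over genes), so a call for the gene depends on how its probe sets are joined. The bright probe set also depended on scaling, and passed after quantile normalization (-0.19, adjusted p = 0.0080) and after cyclic loess normalization (-0.23, adjusted p = 0.0043).

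The prolyl hydroxylase genes, both enzymes of HIF turnover and targets of HIF, had changes whose 95% intervals did not overlap by brightest probe set. Egln3, which encodes PHD3, had signals of 161.7, 139.0 and 173.4 in pyruvate cells, against 338.5, 289.6 and 299.1 in untreated cells. Every pyruvate array was far below every untreated array, with means of 158 ± 17.5 in pyruvate cells and 309 ± 25.9 in untreated cells (SD, n = 3 arrays each). The log2 change was -0.90 (SE 0.09, adjusted p = 2.9e-05), and 81 of the 10685 genes tested had a lower value. Its dimmer probe set 1418648_at fell by 0.41 (adjusted p = 0.022), with 73.5 to 76.1 in pyruvate cells and 85.3 to 117.1 in untreated cells. That call was lost without pyruvate replicate 3, untreated replicate 2 or untreated replicate 3 (adjusted p = 0.056, 0.091 and 0.085). The change of the brighter probe set differed from it by -0.49 on the log2 scale, and the within-array differences did not overlap between the groups.

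Egln1, which encodes PHD2, the main HIF prolyl hydroxylase of most cells, did not pass by its brightest probe set. Its brightest probe set read 309.0, 338.8 and 268.7 in pyruvate cells, against 343.8, 315.9 and 326.2 in untreated cells, with overlapping groups. The change was -0.11 with a 95% interval of -0.28 to 0.07 (adjusted p = 0.35). The dimmer probe set 1451110_at read 137.7, 151.8 and 154.0 in pyruvate cells, against 191.1, 174.5 and 169.7 in untreated cells, and fell by 0.25 (adjusted p = 0.040). That call was close to the threshold and was lost with any single array left out (adjusted p = 0.052 to 0.16).

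The promoters of the targets are shown because HIF is known to bind the short core ACGTG or GCGTG. The 250 bases before the transcript start were read from RefSeq (mouse build GRCm38.p6), which held windows for 9 of the 10 genes and none for Ndrg1. Bnip3 (chr7:138909507-138909756), Egln3 (chr12:54203875-54204124) and Ankrd37 (chr8:45999851-46000100) lie on the minus strand and P4ha1 (chr10:59323046-59323295) on the plus strand. Ddit4 (chr10:59951771-59952020, minus strand), which did not pass, is set beside these 4 genes that fell. Each is written 5′ to 3′ in the direction of transcription and ends at the base before the start, and capitals mark ACGTG or GCGTG on either strand (CACGT and CACGC on the other strand). Adjoining capitals can be overlapping matches, as in the palindrome CACGTG, which matches ACGTG on both strands.
Bnip3: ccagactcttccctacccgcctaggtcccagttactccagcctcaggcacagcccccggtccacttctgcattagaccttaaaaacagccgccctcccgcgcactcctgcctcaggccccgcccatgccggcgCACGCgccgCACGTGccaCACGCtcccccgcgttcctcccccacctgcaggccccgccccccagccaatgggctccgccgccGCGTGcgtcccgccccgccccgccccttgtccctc
Egln3: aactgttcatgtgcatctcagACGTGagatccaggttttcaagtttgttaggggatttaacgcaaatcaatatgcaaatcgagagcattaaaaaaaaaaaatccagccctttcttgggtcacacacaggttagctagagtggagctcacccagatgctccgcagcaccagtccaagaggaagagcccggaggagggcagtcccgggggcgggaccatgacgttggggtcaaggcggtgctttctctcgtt
P4ha1: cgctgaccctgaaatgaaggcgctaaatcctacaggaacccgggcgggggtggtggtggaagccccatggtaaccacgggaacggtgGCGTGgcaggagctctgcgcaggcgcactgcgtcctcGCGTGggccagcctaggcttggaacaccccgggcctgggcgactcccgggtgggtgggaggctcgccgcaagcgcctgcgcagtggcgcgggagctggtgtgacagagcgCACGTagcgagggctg
Ankrd37: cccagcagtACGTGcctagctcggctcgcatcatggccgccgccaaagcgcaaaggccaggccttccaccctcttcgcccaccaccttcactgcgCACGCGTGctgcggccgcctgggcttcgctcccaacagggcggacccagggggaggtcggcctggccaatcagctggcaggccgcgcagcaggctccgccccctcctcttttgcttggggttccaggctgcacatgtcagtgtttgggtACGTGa
Ddit4: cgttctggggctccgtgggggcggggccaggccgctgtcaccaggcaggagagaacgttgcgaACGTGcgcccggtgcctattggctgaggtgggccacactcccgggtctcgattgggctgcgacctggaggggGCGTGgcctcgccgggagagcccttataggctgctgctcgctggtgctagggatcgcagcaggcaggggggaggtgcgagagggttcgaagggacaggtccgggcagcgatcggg

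The Bnip3 window held 5 matches, of which the nearest to the start lay 35 to 31 bases before it and the ACGTG palindrome 108 to 103 bases before it. Ankrd37 held 4 matches and P4ha1 3, with an ACGTG 6 to 2 bases before the start of Ankrd37 and one on the other strand 16 to 12 bases before that of P4ha1. Egln3, which fell nearly as much as Bnip3, held 1 match, 229 to 225 bases before the start. Ddit4 and Egln1, which did not pass, each held 2, and Hif1a held 3. In the window listed first for each, Kdm3a held 1 and Vegfa held 0, and the other 2 windows of Kdm3a held 0. Another Vegfa window (chr17:46025164-46025413, minus strand) held 2. It lies past the first Vegfa window (chr17:46032378-46032627) in the direction of transcription, so its bases are inside the gene as read from the first start. By the first listed window of each gene, 8 of 9 members held at least 1 match, beside 38.6% of the 27025 genes with a window. Over every listed window, 9 of 12 held a match, that Vegfa window among them, beside 38.6% of 32851. The first windows of the members held 10 to 51 CpG dinucleotides (median 20, against 6 for all genes). Among the 10328 windows with at least 10 CpG dinucleotides, which is the lowest member value, 64.2% held a match. A match is a description of these letters, and HIF is also known to act through sites outside such windows.

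Bnip3, a protein of the outer mitochondrial membrane that marks mitochondria for removal by autophagy, showed the largest change of the 20 tested member probe sets. Its signals were 391.8, 342.9 and 361.2 in pyruvate cells, against 811.9, 795.0 and 813.2 in untreated cells. The groups were far apart: the pyruvate mean of 365 ± 24.7 was 0.453 of the untreated mean of 807 ± 10.2 (SD, n = 3 arrays each). The log2 change was -1.11 (SE 0.06, adjusted p = 2.9e-07), and 48 of the 10685 genes tested had a lower value. The 95% intervals of Bnip3 (-1.24 to -0.98) and Egln3 (-1.10 to -0.71) overlapped.

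P4ha1, the catalytic subunit of the prolyl hydroxylase that modifies collagen, fell in both of its probe sets. The brighter probe set read 346.0, 342.8 and 359.4 in pyruvate cells, against 483.8, 472.5 and 505.4 in untreated cells. The replicates were tight and the groups clearly separate, with a log2 change of -0.46 (SE 0.06, adjusted p = 0.00010). The other probe set, 1426519_at, read 261.6, 243.1 and 253.4 in pyruvate cells, against 394.0, 369.4 and 421.2 in untreated cells, a change of -0.61 (adjusted p = 5.0e-05). The intervals of the 2 probe sets overlapped. Within each array, however, the brighter minus the other was higher in pyruvate cells by a mean of 0.15 on the log2 scale. The groups did not overlap in this difference, at 0.38 to 0.48 on pyruvate arrays and 0.25 to 0.34 on untreated arrays.

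Kdm3a, a histone demethylase, had signals of 257.7, 223.7 and 242.3 in pyruvate cells, against 343.9, 356.5 and 350.4 in untreated cells. All pyruvate arrays were lower, and the log2 change was -0.51 (SE 0.07, adjusted p = 0.00018).

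Ndrg1, a cytoplasmic protein induced by hypoxia and cell stress, had 5 probe sets, and all 5 fell. The brightest, 1420760_s_at, read 570.1, 552.2 and 584.0 in pyruvate cells, against 731.6, 679.2 and 711.9 in untreated cells, with a log2 change of -0.31 (SE 0.05, adjusted p = 0.0010). The groups did not overlap on this or on the other 4 probe sets. Their changes were -0.18 for 1450976_at, -0.26 for 1450977_s_at, -0.38 for 1456174_x_at and -0.42 for 1423413_at, so the direction was shared. The sizes were only partly resolved from each other. Within arrays, the change of 1450976_at minus that of 1423413_at was 0.24 on the log2 scale, with overlapping groups. For 1456174_x_at minus 1450976_at it was -0.20, without overlap. The smallest, 1450976_at, passed narrowly (adjusted p = 0.048) and was lost with any array but pyruvate replicate 3 left out, and 1450977_s_at was lost without untreated replicate 1 (adjusted p = 0.052). By platform naming, probe sets ending in _s_at or _x_at can also read other transcripts. The brightest probe sets of Arnt, Ak4, Angptl4 and Pgk1, described below, carry such endings too.

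Ankrd37, a small ankyrin repeat protein whose transcript is induced by hypoxia, was dim and had the widest error. Its signals were 59.7, 28.6 and 68.8 in pyruvate cells, against 75, 84.2 and 98.4 in untreated cells. The second pyruvate array was well below the other 2, and the groups did not overlap. The log2 change was -0.62 (SE 0.21, 95% interval -1.08 to -0.17, adjusted p = 0.040). Without pyruvate replicate 2 it was -0.34 and did not pass (adjusted p = 0.084). The call was also lost without untreated replicate 1, 2 or 3 (adjusted p = 0.052, 0.087 and 0.132), and over all alternatives the adjusted p ran from 0.020 to 0.14.

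Ddit4, also called REDD1, which restrains mTORC1 in stressed cells, had signals of 474.2, 473.3 and 497.4 in pyruvate cells, against 477.9, 510.5 and 537.7 in untreated cells. The groups overlapped, and the change of -0.08 (95% interval -0.20 to 0.05) did not pass (adjusted p = 0.36). A fall as large as that of Ndrg1, -0.31, lay outside this interval.

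Vegfa, the growth factor for blood vessels, had probe sets that pointed opposite ways, and neither passed. The brighter probe set read 452.5, 371.9 and 430.4 in pyruvate cells, against 454.6, 469.1 and 448.6 in untreated cells, with overlapping groups and a change of -0.13 (adjusted p = 0.20). The other, 1451959_a_at, read 223.0, 199.5 and 203.9 in pyruvate cells, against 197.0, 191.9 and 176.3 in untreated cells. Here every pyruvate array was higher, with a change of 0.14 (95% interval -0.03 to 0.31, adjusted p = 0.20). The mean over both probe sets changed by 0.00 (adjusted p = 0.97).

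**Figure D2:**
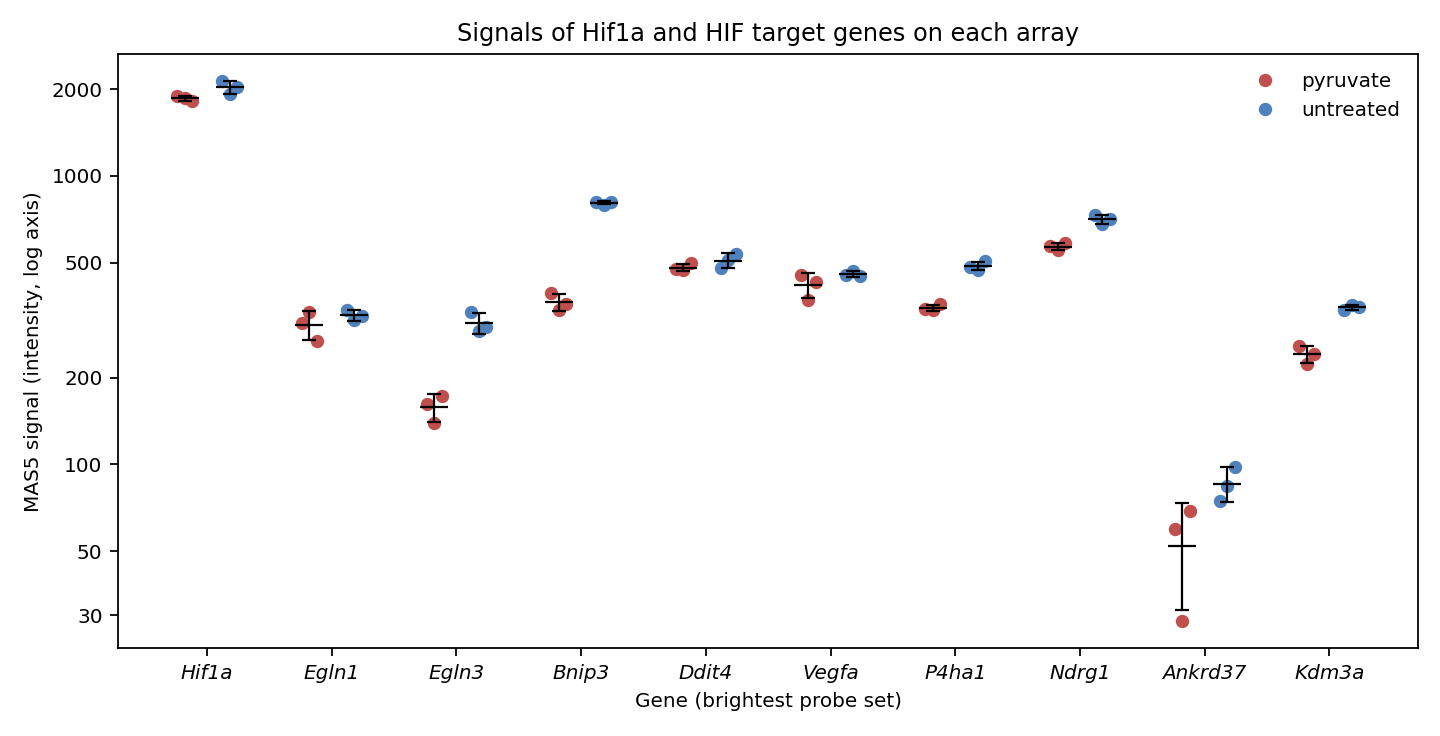
MAS5 signal (intensity, log axis) of the brightest probe set of each of the 10 genes. Points are single arrays, 3 pyruvate (red, left) and 3 untreated (blue, right), and black lines give the mean ± SD. Bnip3, Egln3, P4ha1, Ndrg1 and Kdm3a show clear gaps between the groups, while the points of Egln1, Ddit4 and Vegfa overlap and 1 pyruvate array of Ankrd37 lies far below the rest.

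The order of change by brightest probe set was Bnip3, Egln3, Ankrd37, Kdm3a, P4ha1, Ndrg1, Vegfa, Hif1a, Egln1 and Ddit4. In this order the 95% intervals of each gene and the next overlapped, so neighbours are not resolved from each other by these intervals. The interval of Bnip3 lay wholly below those of Kdm3a (-0.66 to -0.37), P4ha1 (-0.58 to -0.34), Ndrg1 (-0.42 to -0.19) and the 4 genes that did not pass. That of Ankrd37 was wide enough to overlap those of all the other 9 genes.

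The count of genes that fell was the same under each scaling tried. With median centring, quantile normalization and cyclic loess normalization, 6 of the 10 genes fell by brightest probe set and 0 rose under each, although Ankrd37 was lost from the calls and Hif1a gained under quantile and cyclic loess normalization. The median change of the 10 genes was -0.35, -0.37 and -0.38 under these 3 scalings.

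**Figure D3:**
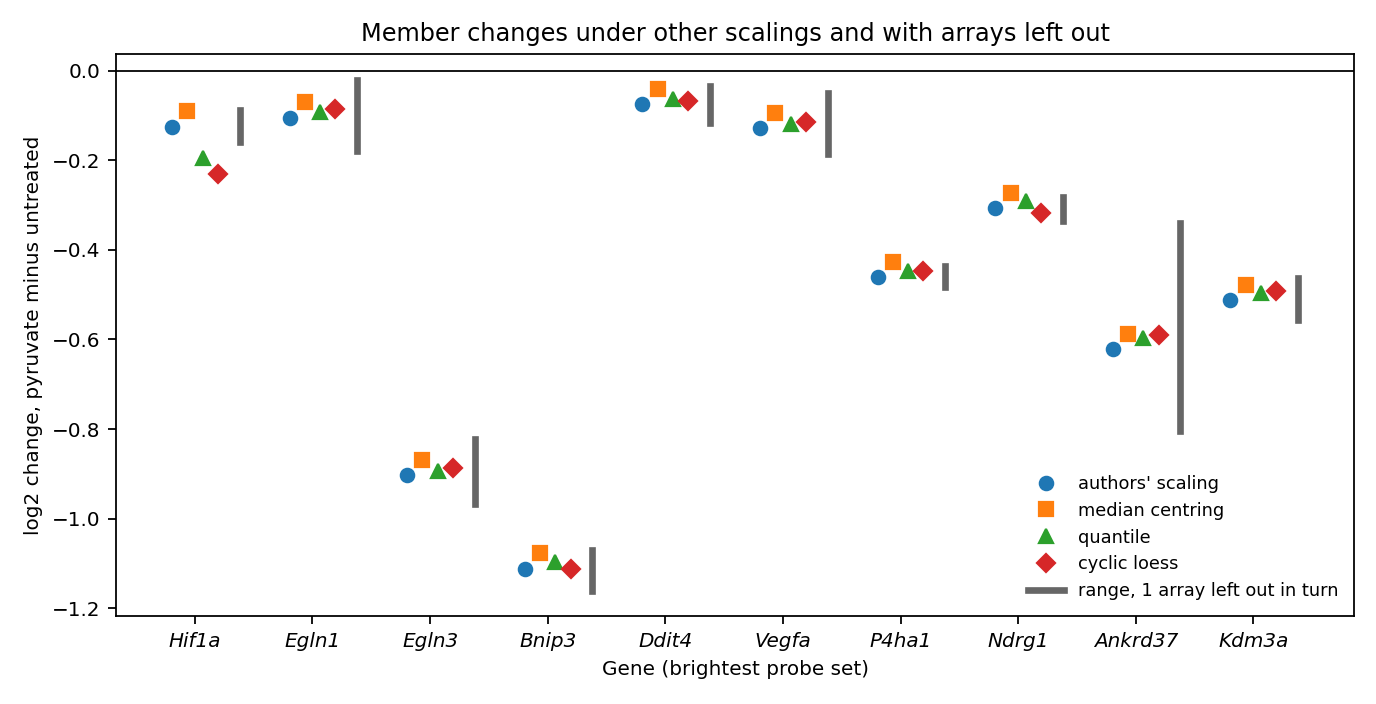
Log2 change, pyruvate minus untreated, of the brightest probe set of each gene as the authors scaled the arrays (circles) and after median centring (squares), quantile normalization (triangles) and cyclic loess normalization (diamonds). Grey bars span the values with 1 array left out in turn. Bnip3 stays between -1.16 and -1.07 in its bar, while the bar of Ankrd37 runs from -0.80 to -0.34.

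Other genes of the HIF pathway did not share one direction. Of 78 genes in 5 lists, 71 had a probe set of 1 symbol and 59 were tested, of which 13 rose (22.0%) and 14 fell (23.7%), with a median change of -0.02. These shares stand beside 20.7% higher and 14.5% lower for all genes.

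Among factors and partners, 2 of 6 tested genes rose and 1 fell. Arnt, the partner that HIF1A needs to bind DNA, had signals of 141.6, 128.8 and 120.8 in pyruvate cells, against 199.5, 150.0 and 203.0 in untreated cells. It fell by 0.44 (adjusted p = 0.011), a call lost without untreated replicate 1 or 3 (adjusted p = 0.051 and 0.054). Of its dimmer probe sets, 1437042_at changed by -0.62 and 1421721_a_at by -0.26, and both passed, while 1425064_at was at -0.12 with overlapping groups and did not pass (adjusted p = 0.53). Cited2, which competes with HIF1A for the coactivators p300 and CBP, rose by 0.61 (adjusted p = 2.9e-06), with 4269 ± 54.3 in pyruvate cells and 2784 ± 20.6 in untreated cells (SD, n = 3 arrays each). The change of this bright probe set was 0.42 after quantile and 0.46 after cyclic loess normalization. The dimmer Cited2 probe set 1421267_a_at rose by 0.81. Arnt2, a relative of Arnt, rose by 0.34 and only narrowly (adjusted p = 0.046), and leaving out any 1 array ended the call. Epas1, which encodes the alpha subunit HIF2A, was below the signal limit in both groups, with signals of 3.5 to 17.6 in pyruvate cells and 3.0 to 7.2 in untreated cells.

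Among 9 tested genes of hydroxylation and degradation, 3 rose and 1 fell, and under each of the other 3 scalings 3 rose and 0 fell. Egln2, the remaining HIF prolyl hydroxylase, rose by 0.19 (adjusted p = 0.044), and Vhl, which recognises hydroxylated HIF, fell by 0.19 (adjusted p = 0.048), and both calls were lost with any array but pyruvate replicate 1 left out. Elob, a partner of VHL in its ligase complex, rose by 0.26, but its change was 0.14 after quantile and 0.13 after cyclic loess normalization, and its dimmer probe set was at 0.15 and did not pass (adjusted p = 0.056). Usp20, a deubiquitinase, rose by 0.36. Hif1an, the asparagine hydroxylase that blocks coactivator binding, was at -0.20 and did not pass (adjusted p = 0.15).

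Targets of glucose metabolism were mostly lower where they passed: 7 of 17 tested genes fell and 2 rose. Pdk1, a kinase that closes pyruvate dehydrogenase, read 105.3, 112.3 and 119.4 in pyruvate cells, against 402.7, 386.0 and 401.5 in untreated cells, a change of -1.69. Every pyruvate array was far below every untreated array (adjusted p = 5.8e-08). Ak4, a mitochondrial adenylate kinase, fell by 1.05, with 44.3 ± 9.06 in pyruvate cells and 108 ± 7.15 in untreated cells (SD, n = 3 arrays each). The lactate transporter Slc16a3 changed by -0.69 and the phosphofructokinase subunit Pfkl by -0.64, and both passed. The glucose transporter Slc2a1 fell by 0.25 (adjusted p = 0.020), a call lost without pyruvate replicate 1 or 3 or untreated replicate 1 or 3. Pgk1, phosphoglycerate kinase, rose by 0.37 as the authors scaled the arrays but was at -0.13 after quantile and 0.17 after cyclic loess normalization. Its second brightest probe set, 1417864_at, rose by 0.28 (adjusted p = 0.0094 in limma) and was likewise at -0.13 after quantile normalization. The much dimmer probe set 1439435_x_at fell by 0.68. The other gene that rose was Pkm, pyruvate kinase, named after its value was seen. Its bright probe set, at a log2 mean of 12.10, rose by 0.54 as the authors scaled the arrays. This change was 0.23 after quantile and 0.37 after cyclic loess normalization. Ldha, lactate dehydrogenase A, did not pass (0.04, adjusted p = 0.60) and was lower after quantile normalization (-0.28). After that normalization 11 of the 17 fell and 1 rose. Car9, a carbonic anhydrase often used as a sign of hypoxia, was below the signal limit in both groups (means of 14.8 in pyruvate cells and 13.9 in untreated cells).

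Targets of vessels, matrix and iron were mostly higher where they passed, with 5 of 11 tested genes up and 1 down. Hmox1, heme oxygenase, read 609.4, 705.1 and 758.8 in pyruvate cells, against 305.5, 300.5 and 290.1 in untreated cells, a change of 1.16. Lox, which crosslinks collagen, rose by 1.00 and Angptl4, a secreted inhibitor of lipoprotein lipase, by 0.99. Plod2, a lysyl hydroxylase of collagen, fell by 0.35, with 384 ± 21.6 in pyruvate cells and 497 ± 59.7 in untreated cells, but its other tested probe set was at -0.06 and did not pass. The remaining genes that rose were Plod1 and Tfrc, named after their values were seen. Adm, adrenomedullin, was below the signal limit (means of 10.6 in pyruvate cells and 17.7 in untreated cells).

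Targets of mitochondria, chromatin and stress had 4 of 16 tested genes down and 1 up, and 4 down and 2 up after median centring or quantile normalization. The transcriptional repressor Bhlhe40 changed by -0.63 and the mitochondrial protein Higd1a by -0.51. Ccng2, an atypical cyclin, changed by -0.45 and Fam162a, a mitochondrial protein, by -0.39. In all 4 the pyruvate arrays lay below all untreated arrays. Insig2, a regulator of sterol sensing chosen after its value was seen, rose by 0.16 (adjusted p = 0.046).

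**Figure D4:**
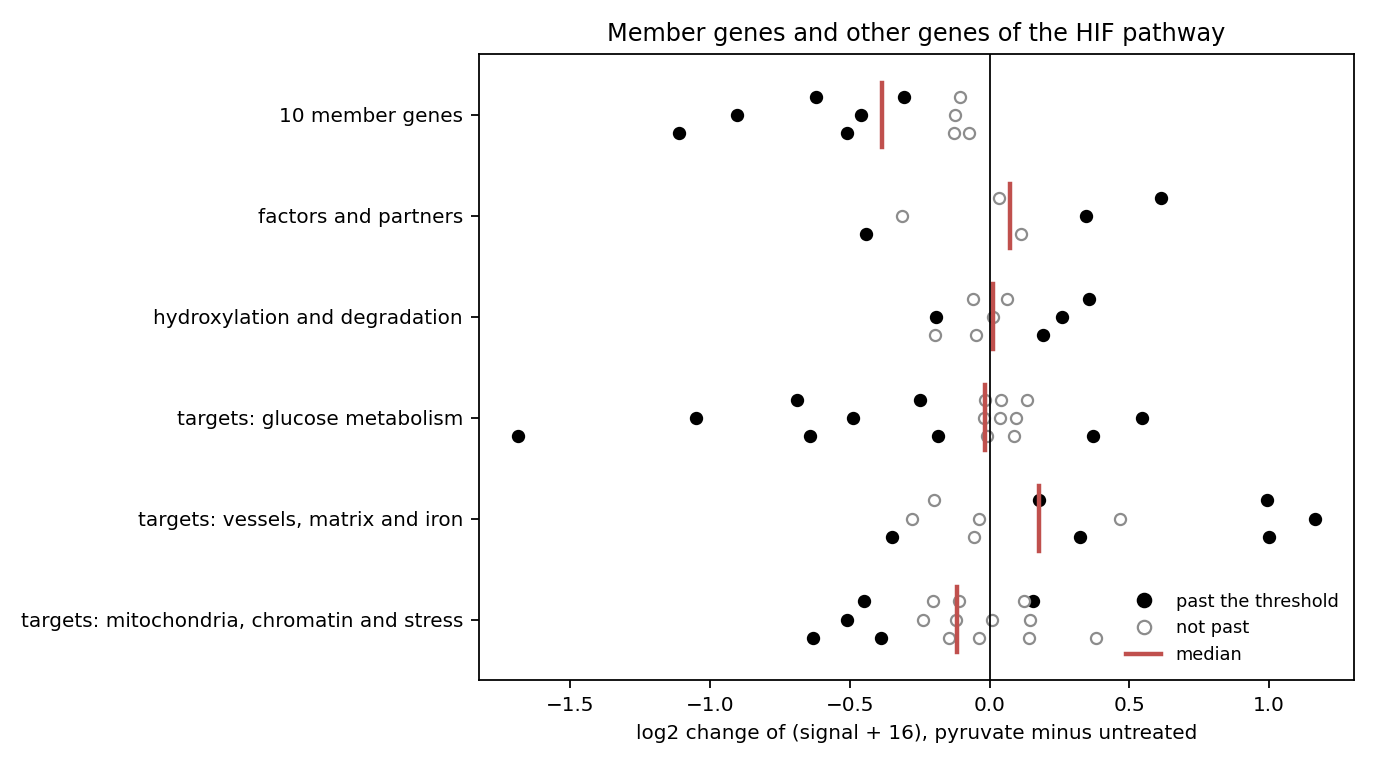
Log2 change of (signal + 16), pyruvate minus untreated, by brightest probe set, for the 10 member genes and for the tested genes of 5 lists of other HIF pathway genes. Each circle is a gene, filled where it passed the test, and red lines are medians. The members' median is -0.38, while the medians of the lists lie between -0.12 and 0.18.

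The genes whose log2 values over the 6 arrays were most like those of Bnip3 were Adam10 (Pearson r = 0.9999), Zbtb18 (0.9995) and Mymk (0.9993), and those most like Hif1a were Mapk14 (0.999), Mia3 (0.993) and Arf5 (0.991). All 6 arrays of 2 groups enter each r, so it mostly follows the gap between the groups, and it is given as a description. Mymk changed by -2.01, Zbtb18 by -1.21 and Adam10 by -0.52.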

How the data were processed

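The deposited values are MAS5 signals, in units of intensity, made by the authors per the submitters' processing notes, whose version the labels leave out. After trimming 2% of probe sets from each end, the mean was 150.0 on all 6 arrays, so each array had been scaled to a common level, and that scaling was kept. Arrays carry no read depth, and their number limits the precision.

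Gene symbols came from the platform annotation and were checked through Entrez identifiers against RefSeq (34741 of 34945 single-symbol probe sets matched). After 64 controls were left out, signals were transformed as log2(signal + 16). The contrast of pyruvate minus untreated was fitted with limma 3.58.1 (R 4.3.3; lmFit, then eBayes with trend, two-sided), and the test was tried on simulated data with known changes. Each gene took the value of its brightest probe set. Figures used matplotlib 3.10.9.

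The 10 members and the gene lists were chosen with earlier results of these data known, so their counts are descriptions beside the share of all genes. From each list the text names up to 4 genes that passed, by size of change, and always Epas1, Arnt, Egln2, Hif1an, Vhl, Pdk1, Slc2a1, Ldha, Pgk1, Hmox1, Car9 and Adm. Some listed genes had no probe set of 1 symbol and are not analysed here. Alternatives changed the pseudocount, signal filter, scaling, variance trend, replicate block, size threshold, joining of probe sets and the arrays included. The most alike genes were the 3 with the highest Pearson r over the 6 arrays, unnamed transcripts passed over.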

Additional observations from a re-analysis of the deposited data

How the results depend on the processing

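Of the 14 member probe sets that fell, 9 passed under all 15 alternatives other than the size threshold, among them those of Bnip3, Kdm3a, both of P4ha1 and the brightest of Egln3 and Ndrg1. The calls lost were those of Ndrg1 1450976_at (11 alternatives), Egln1 1451110_at (10), Ankrd37 (8), Egln3 1418648_at (4) and Ndrg1 1450977_s_at (1), and the stricter signal filter left Ankrd37 and Egln3 1418648_at untested. With 1 array left out in turn, 10 to 12 member probe sets and 5 to 6 member genes fell and 0 rose. With a minimum absolute log2 change of 0.5, 5 member probe sets fell, 5 other pathway genes rose and 6 fell, and 907 of all probe sets rose and 1070 fell; the stricter rule itself gives fewer calls. Without the signal filter 10 member probe sets fell, with more probe sets sharing the adjustment. Ldha was at -0.28 after quantile normalization (adjusted p = 9.3e-05) and -0.13 after cyclic loess, and Pgk1 at -0.13 after quantile normalization, against positive values as the authors scaled the arrays; the cause was not tested. Replicate numbers are shared by the groups. Correlations of the deviations of same-numbered arrays were near 0 (-0.009, 0.014 and 0.021), against -0.026 to 0.011 for different numbers. Of the 6 arrays, 4 correlated best with their own number. Whether same-numbered arrays were handled together was not tested. With the replicate number as a block, 12 member probe sets and 6 member genes fell.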
